A study of Mus musculus with 2 samples.

Results

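The cytosolic ribosome of the mouse is built from proteins named Rpl for the large subunit and Rps for the small subunit. The genes described here are the protein-coding RefSeq genes whose symbol is Rpl or Rps followed by a number and at most a short suffix, together with Rplp0, Rplp1, Rplp2 and Rpsa. They number 77 of 21887 protein-coding genes on the assembled chromosomes, 46 for the large subunit and 31 for the small subunit. Each was joined to the authors' list of 19265 peaks of histone H3 trimethylated at lysine 4 (H3K4me3). A peak was assigned to a gene if any base of it fell within 1 kb of the gene's start or end. The main peak of a gene was the one of these with the most tags, where a tag is a sequenced fragment end placed on the genome.

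The study mapped H3K4me3 by chromatin immunoprecipitation and sequencing in neural progenitor cells of adult mice, cultured in N2 medium that contained EGF and bFGF, with no treatment. There was 1 H3K4me3 library, labelled "con", and 1 input library of the same cells, which were also kept in EGF and bFGF. The label "con" is not explained, and the header of the peak list names the library after EGF. The labels give no strain, sex, age in weeks or number of animals or cultures, and neither library was replicated, so no value below has an error between cultures and no test between conditions was possible.

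Ribosomal proteins assemble on ribosomal RNA in the nucleolus, in nearly equal amounts, and dividing progenitors need new ribosomes before each division. Vertebrate mRNAs for these proteins typically begin with a C followed by a run of pyrimidines, the terminal oligopyrimidine tract, through which mTOR signalling controls their translation. H3K4me3 lies over the first nucleosomes of transcribed and poised genes, mostly downstream of the start site.

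RefSeq promoter entries, with 250 bases before to 50 bases after a start, matched 57 of the 77 genes. The windows below are shown because these genes are best known for the terminal oligopyrimidine tract at the start of the mRNA. Each gives 45 bases before the start and the first 15 bases of the transcript on the strand of the gene (RefSeq, GRCm38.p6), with the unbroken run of C and T over the first transcript base in capitals. The first 6 have long runs. The last 3 have none, and are Rpl41 with the most H3K4me3 tags, Rpl36a with the fewest, and the X-linked Rps4x.
Rpl7a, chr2:26910762-26910821, plus strand: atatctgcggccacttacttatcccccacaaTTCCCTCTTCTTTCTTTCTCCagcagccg
Rpl27a, chr7:109519150-109519209, plus strand: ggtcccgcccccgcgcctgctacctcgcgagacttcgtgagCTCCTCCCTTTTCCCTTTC
Rpl34, chr3:130730323-130730382, minus strand: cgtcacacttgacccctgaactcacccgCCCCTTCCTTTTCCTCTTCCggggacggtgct
Rpl35, chr2:39005117-39005176, minus strand: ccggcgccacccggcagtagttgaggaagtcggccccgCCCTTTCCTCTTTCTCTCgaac
Rps10, chr17:27635230-27635289, minus strand: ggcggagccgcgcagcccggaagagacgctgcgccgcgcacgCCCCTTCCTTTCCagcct
Rps6, chr4:86857353-86857412, minus strand: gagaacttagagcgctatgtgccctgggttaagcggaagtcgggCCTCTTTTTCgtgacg
Rpl41, chr10:128549154-128549213, minus strand: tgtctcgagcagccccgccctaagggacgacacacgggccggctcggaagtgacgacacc
Rpl36a, chrX:134585609-134585668, plus strand: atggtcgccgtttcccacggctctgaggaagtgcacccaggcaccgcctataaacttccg
Rps4x, chrX:102189377-102189436, minus strand: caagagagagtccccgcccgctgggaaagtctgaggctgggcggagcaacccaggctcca

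The runs over the start were 21 bases at Rpl7a, 20 at Rpl27a and Rpl34, 18 at Rpl35, 13 at Rps10 and 10 at Rps6. These lengths include bases before the start, so they are not lengths of the tract in the mRNA. The run at Rpl27a continues past the end of the window shown, so not all of it appears there. A run of at least 8 pyrimidines lay over a start of 17 of the 57 genes (29.8%, exact 95% interval 18.4 to 43.4), against 4.60% of 9840 other protein-coding genes with a peak and 4.11% of all 17435 others with an entry. The first transcript base was C at 20 of the 57 (35.1%) and at 17.6% of the others with a peak. This run length and the first base were chosen as measures after the sequences were seen. A short pyrimidine motif (CTTTCC and its shifted form CCTTTC, the variants CTTTTC and CTTTCT, and the longer TTCTTTC, several of which can overlap) lay within 25 bases of a start, on the strand of the gene, in 19 of the 57 genes (33.3%) and in 6.91% of the others with a peak. A gene with several entries counted if any of them held the motif, and an annotated start a few bases off would hide a run.

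Further upstream, the 3 windows below are shown because they hold TCTCGCGA on either strand, a motif found in a larger share of these promoters than of others. Each gives the 120 bases before the start (RefSeq, GRCm38.p6), with matches to CCGGAAG, the core bound by ETS factors, or to TCTCGCGA in capitals. The reverse complement of TCTCGCGA is TCGCGAGA, and both overlap in the palindrome TCTCGCGAGA, which is bound by BANP and is complete at Rps6 and Rpl26.
Rps6, chr4:86857368-86857487, minus strand: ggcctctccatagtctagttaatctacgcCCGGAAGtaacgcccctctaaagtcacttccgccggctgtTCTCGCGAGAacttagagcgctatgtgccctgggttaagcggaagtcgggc
Rps3a1, chr3:86142669-86142788, minus strand: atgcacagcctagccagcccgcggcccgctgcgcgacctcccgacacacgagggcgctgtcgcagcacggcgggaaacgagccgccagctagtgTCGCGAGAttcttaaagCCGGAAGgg
Rpl26, chr11:68901446-68901565, plus strand: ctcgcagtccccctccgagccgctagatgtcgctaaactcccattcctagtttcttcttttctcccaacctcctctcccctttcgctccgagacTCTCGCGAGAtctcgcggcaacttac

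In the whole entries, searched on both strands, TCTCGCGA was present at 11 of the 57 genes (19.3%) and at 2.35% of the other coding genes with a peak. The CCGGAAG core was present at 24 of the 57 (42.1%, interval 29.1 to 55.9) and at 19.6% of the others. Both were found at 5 genes, which were Rpl26, Rpl27a, Rpl35, Rps3a1 and Rps6. Of 18 matches to TCTCGCGA at distinct positions, counting each strand of a palindrome, 15 began in the last 60 bases before a start of the gene, as did 9 of 28 matches to CCGGAAG. Neither these positions nor the genes with both motifs were counted for other promoters, so they are not shown to be particular to ribosomal protein genes. At least 1 of CCGGAAG, TCTCGCGA and a pyrimidine run of 8 was held by 36 of the 57 genes. That share was not computed for other genes either, so it has no background here.

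For other promoter motifs the exact 95% interval of the ribosomal protein genes took in the share of the other marked genes. The YY1 motif AAGATGGC lay in 8.77% of the ribosomal protein promoters and 5.09% of the other marked ones, and the E-box CACGTG, bound by Myc among others, in 10.5% and 11.5%. The Sp box GGGCGG was found in 61.4% and 70.5%, the CCAAT box in 31.6% and 43.0%, and TATAAA in 10.5% and 8.29%. The promoters had a median GC content of 57%, against 61.3% in other marked coding genes, and a median observed to expected CpG ratio of 0.88 against 0.765. A match is a run of letters and not evidence of binding there. For the H3K4me3 peaks of genes with and without a feature, the medians of fold enrichment were 45.9 and 47.0 for CCGGAAG, 46.3 and 46.2 for TCTCGCGA, and 45.6 and 47.0 for the pyrimidine run. Genes with TCTCGCGA had a median of 477 tags over 2711 bp and those without it 405.5 tags over 2459.5 bp. The medians with and without the pyrimidine run were 461 tags over 2476 bp and 405.5 tags over 2488 bp, and with and without CCGGAAG 437 tags over 2456.5 bp and 451 tags over 2489 bp. These differences were not tested.

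H3K4me3 was called at an end of all 77 ribosomal protein genes (100%, exact 95% interval 95.3 to 100), 46 of 46 for the large subunit and 31 of 31 for the small one. The background was 56.3% of all 21887 protein-coding genes. Among other coding genes of at most 10 kb, a length that 76 of the 77 genes keep to, 3052 of 7850 had a peak (38.9%). The 77 main peaks were all distinct and together held 34445 tags, which is 0.716% of the tags in peaks. Their highest false discovery rate in the authors' list was 0.02%. The culture was measured in bulk, so a peak with fewer tags could mean fewer marked cells or less of the mark per cell, which cannot be told apart.

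The peaks at ribosomal protein genes had higher medians of fold enrichment, tags and length than those at other marked coding genes. The median fold enrichment over the input, the authors' own ratio per peak, was 47.0 (quartiles 42.1 and 53.5), against 39.1 (29.6 and 46.2) at 12251 other marked coding genes. Tags had a median of 426 (363 and 510) against 337 (218 and 481). Length had a median of 2473 bp (2295 and 2868) against 2196 bp (1721 and 2822). Both sets overlapped widely, but few ribosomal protein genes were weak: 63 of the 77 lay above the median fold enrichment of the other marked genes, and 3 lay below their lower quartile. For tags, 64 lay above the median and 2, Rpl36a and Rpl18, below the lower quartile. For length, 62 lay above the median of the other marked genes, 22 above their upper quartile and 3 below the lower one. The authors' score, which stops rising near 3100, stood at exactly 3100 in 46 of the 77 genes (59.7%) and in 35.8% of the others, so it does not rank the strongest peaks.

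**Figure D1:**
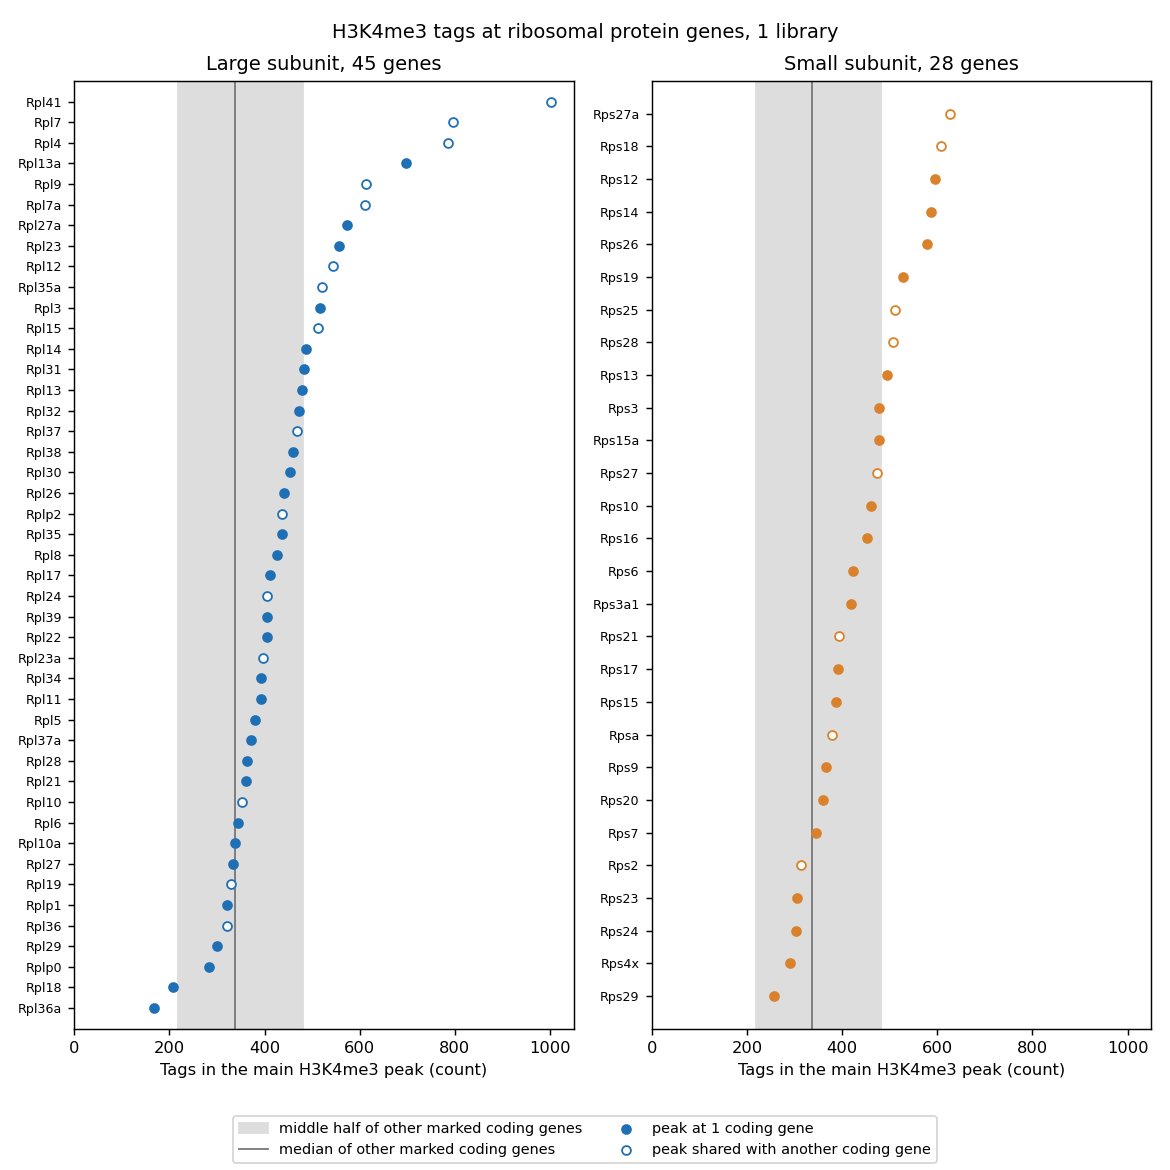
Tags in the main H3K4me3 peak of the ribosomal protein genes reported by name (horizontal axis, count), large subunit on the left and small subunit on the right, in 1 library. Filled points are peaks at 1 coding gene and open points are peaks shared with another coding gene. The grey band spans the quartiles of other marked coding genes, 218 to 481 tags, and the line is their median of 337. Values ran from 168 at Rpl36a to 1003 at Rpl41, and most points lie to the right of the line.

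The genes are short, and the mark covered much of them. Their median length was 3175 bp, against 23782 bp for the other marked coding genes, and the main peak covered a median of 53.1% of the gene, against 5.38%. At least 50% of the gene lay under the main peak in 45 of the 77 genes (58.4%), against 20.2% of other marked coding genes of at most 10 kb. Rpl41, Rps27, Rps21 and Rps29, with gene lengths of 1059, 982, 1066 and 1465 bp, lay wholly under theirs. The main peak touched the windows of both ends in 27 genes (35.1%), against 15.1% of other marked genes of at most 10 kb. Those other genes were still longer, with a median of 5201.5 bp (quartiles 3200.5 and 7486.2), so neither comparison was matched for gene length. Gene length and the mark were nearly uncorrelated: across the 77 genes Spearman's rho was -0.0544 with peak length and -0.0658 with tags, as a description over genes of 1 library.

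Relative to the start, the peaks leaned into the gene. In the 57 genes with a known start the summit, the peak's highest point, lay past the start in 48 (84.2%), against 77.2% of other marked genes, at a median of 230 bp (quartiles 178 and 391) against 202 bp. The peak reached a median of 1656 bp downstream (1433 and 1833) and 891 bp upstream (660 and 1251). The other marked genes had medians of 1307 and 826 bp. The downstream reach exceeded the upstream one in 53 of the 57 (93.0%, interval 83.0 to 98.1), against 75.6% of the others. The longest downstream reaches were 3185 bp at Rpl41 and 2645 bp at Rps4x, and the shortest upstream ones 197 bp at Rplp0 and 199 bp at Rps4x.

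**Figure D2:**
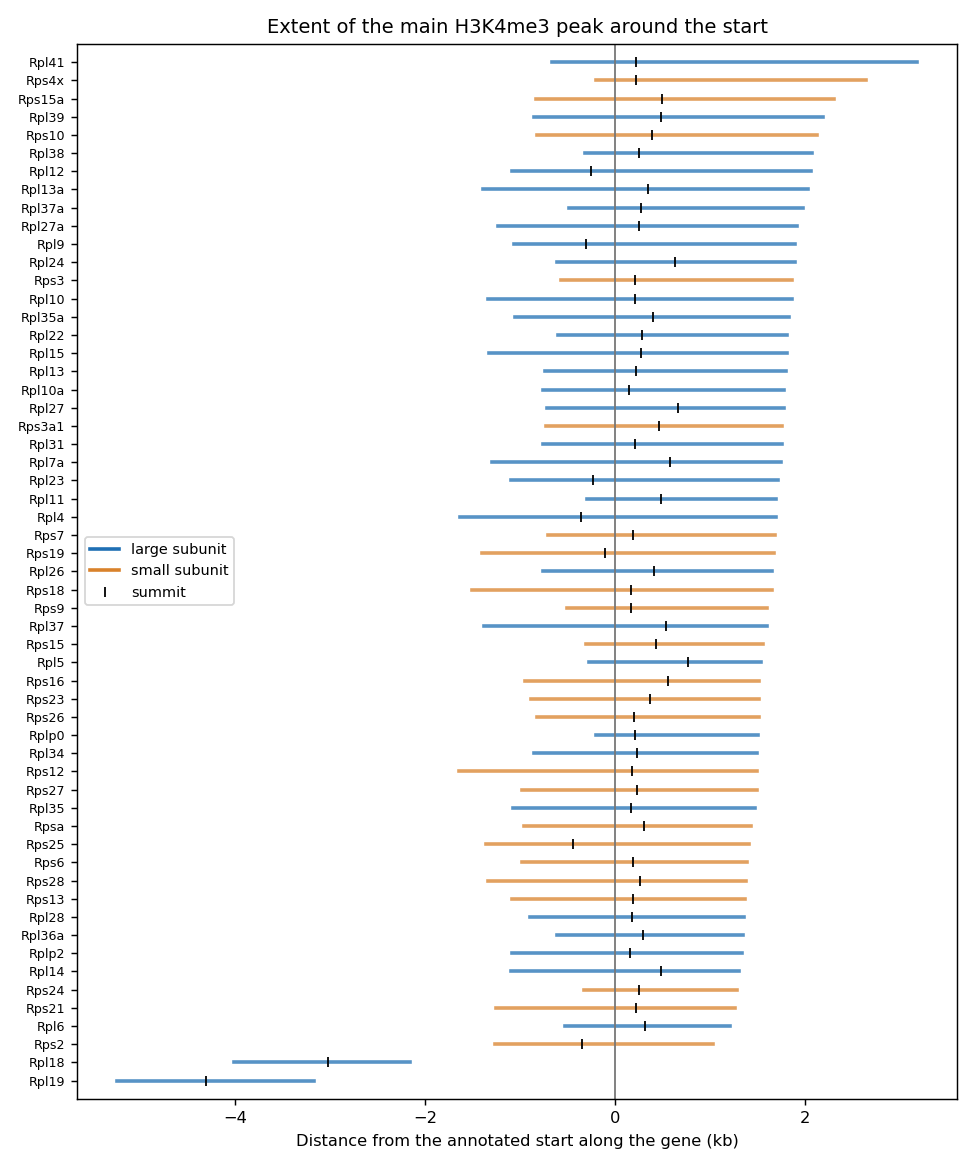
Extent of the main H3K4me3 peak (bars) and its summit (ticks) around the annotated start of 57 ribosomal protein genes, in kb along the gene, ordered by downstream reach. Downstream is to the right of the line at 0. In 53 genes the bar is longer to the right, and at Rpl18 and Rpl19, the lowest bars, the main peak lies wholly upstream.

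At 2 genes, Rpl18 and Rpl19, the peak at a gene end did not cover the start that RefSeq lists in the promoter table, which lies inside the gene. The end peak of Rpl18 held 207 tags with its summit at -3020 bp from that start (a negative value lies upstream), whereas a second peak inside the gene (mm10, chromosome 7, 45716477 to 45719717) held 595 tags at a fold enrichment of 52.8 with its summit 174 bp past it. That second peak also lay at an end of Sphk2. The end peak of Rpl19 held 330 tags with its summit at -4303 bp and was shared with Cacnb1, and a peak inside the gene (chromosome 11, 98025890 to 98028281) held 434 tags at 48.1 with its summit 396 bp past the start. The low tag count of Rpl18 is therefore that of its end peak, and its peak over the start was stronger.

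Measured from the nearest gene end, which needs no strand, the summit lay at a median of 296 bp (quartiles 222 and 437) in the 77 genes and 341 bp (202 and 588.5) in the other marked genes. The summit was inside the gene in 67 of the 77 (87.0%) and in 80.9% of the others. The nearest summit was that of Rpl30 at 148 bp. The farthest were those of Rpl17 at 1702 bp, Rps2 at 1597 bp and Rpl22 at 1577 bp. At Rpl22 the summit was nevertheless 287 bp past an annotated start, which lies inside the gene. At Rps2 it lay at -345 bp, upstream of the annotated start.

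Among the proteins of the large subunit, the acidic stalk proteins recruit the translation factors that hydrolyse GTP. Rplp0, the base of the stalk, had 284 tags over 1703 bp, one of the 3 shortest peaks, at a fold enrichment of 53.5. Rplp1 had 322 tags over 2201 bp at 30.4, and Rplp2 had 437 tags over 2426 bp at 38.2. All 3 stalk genes were thus marked, with Rplp0 the highest of them in fold enrichment and the lowest in tags. Rpl5 and Rpl11 bind the 5S ribosomal RNA and, when free, the ubiquitin ligase Mdm2. They had 379 and 392 tags, over short peaks of 1807 and 1989 bp, at fold enrichments of 37.9 and 50.6.

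The highest tag counts lay at the large subunit. Rpl41, which encodes the smallest ribosomal protein, had 1003 tags over 3846 bp at a fold enrichment of 48.8. Rpl7 had 796 tags over 4312 bp, the longest peak of all 77, at 49.9. Rpl4, a protein of the wall of the exit tunnel, had 785 tags over 3322 bp at 33.2. All 3 peaks were shared with another coding gene. Rpl3, which reaches towards the peptidyl transferase centre, had the third longest peak, 3567 bp with 516 tags at 37.1, at no other coding gene. Rpl38, whose loss disturbs the axial skeleton in mice, stood near the middle with 460 tags over 2386 bp at 45.8.

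By fold enrichment the order was different. Rpl13a led with 69.4 (698 tags over 3421 bp), followed by Rpl26 and Rpl17, both at 65.8, with 442 tags over 2416 bp and 411 tags over 1979 bp. The 3 lowest were Rpl36a at 26.0, Rpl39 at 27.6 and Rps4x at 28.9, all X-linked. Across the 77 genes Spearman's rho was 0.693 between length and tags and -0.107 between length and fold enrichment. Over the 12251 other marked genes the values were 0.928 and 0.556. Both are descriptions across genes of 1 library, in which tags and length come from the same peak.

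Among the proteins of the small subunit, which has fewer genes, the range was narrower. Rps27a, made as a fusion with ubiquitin, had the most tags, 627 over 2530 bp at 61.5. Rps6, the substrate of the S6 kinases downstream of mTOR, stood at 422 tags over 2366 bp at 46.3, and Rps3, at the mRNA entry channel, at 478 tags over 2437 bp at 48.3. Rpsa, also known as the laminin receptor, had 379 tags over 2390 bp at 53.5. Rps14 and Rps19 are known from human anaemias caused by loss of 1 copy. They had 586 and 528 tags, over 2511 and 3069 bp, at 62.8 and 51.4. The least tags of the small subunit were the 256 at Rps29, over 1601 bp, the shortest peak of all 77, and Rps24 had the second shortest, 1618 bp with 303 tags. Their fold enrichments of 47.0 and 41.4 were not the lowest. A second called peak, of 663 bp with 32 tags, lay close to the main peak of Rps29. With peaks 1 kb or less apart joined, Rps29 had 288 tags over 2472 bp, longer than the 1618 bp of Rps24.

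The values of large and small subunit genes overlapped over most of their range. Median tags were 431.5 (quartiles 362.2 and 515.2, range 168 to 1003) for the large and 422 (372 and 500.5, range 256 to 627) for the small subunit. Median length was 2494.5 bp (2253.5 and 2972.2) and 2448 bp (2347.5 and 2738.5). Median fold enrichment was 45.7 (39.4 and 51.4) and 47.0 (44.9 and 53.5), and the order-statistic 95% intervals of these medians, 42.5 to 50.3 and 46.0 to 53.5, overlapped. On the autosomes alone the medians came to 437 and 436.5 tags and to fold enrichments of 46.2 and 47.7. Genes are not replicates, and no test was made. These intervals are of the medians, treat the genes as a sample and take in no error between cultures, while the quartiles give the spread over genes. The range was wider at the large subunit in both tags and fold enrichment, but that subunit also has more genes, 46 against 31.

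**Figure D3:**
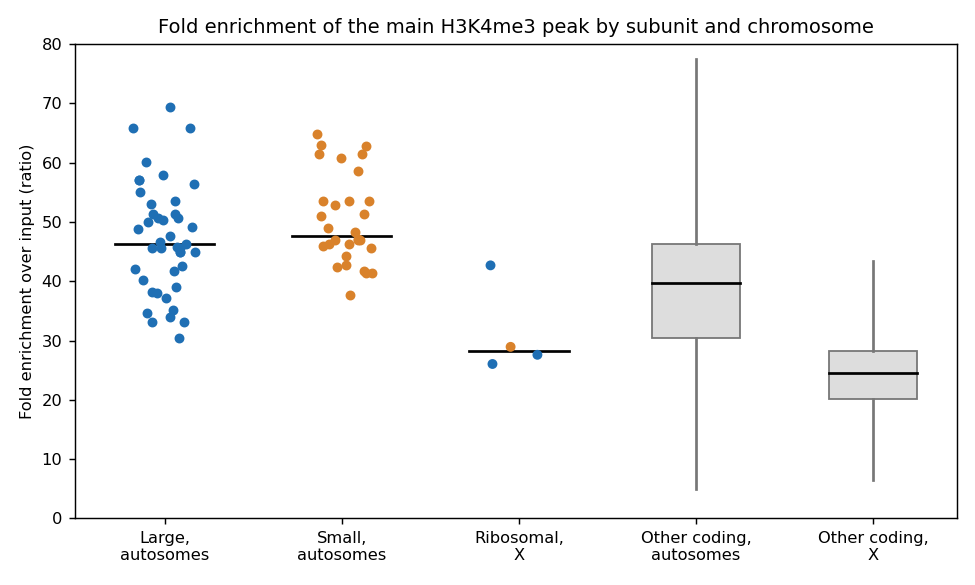
Fold enrichment over the input (vertical axis, ratio) of the main peak of each ribosomal protein gene by subunit on the autosomes and, for 4 genes, on X, where blue is large and orange small subunit. Lines are medians. Boxes give the quartiles and whiskers the range for other marked coding genes. The 4 X-linked points lie between 26.0 and 42.7, and the autosomal medians are 46.2 and 47.7.

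The 4 X-linked genes had weaker peaks than most of the autosomal ones. Rpl36a had 168 tags over 1955 bp at a fold enrichment of 26.0, Rpl39 had 405 tags over 3041 bp at 27.6, Rps4x had 290 tags over 2845 bp at 28.9, and Rpl10, a late-joining protein of the large subunit, had 353 tags over 3193 bp at 42.7. The first 3 lay below each of the 73 autosomal genes in fold enrichment, whose lowest was 30.4, and Rpl10 lay inside their range. The same order held for other genes, with a median of 24.6 at 378 marked X-linked coding genes (quartiles 20.2 and 28.2) and 39.7 at 11868 autosomal ones. Against the other marked X-linked genes, the medians of these 4 were higher, 28.3 in fold enrichment, and 321.5 against 190 in tags. The 4 X-linked ribosomal protein genes had a median peak length of 2943 bp, against 2471 bp for those on the autosomes and 1947 bp at the other marked X-linked genes. The 1955 bp of Rpl36a lay below the autosomal lower quartile of 2295 bp. The labels used here give no sex of the animals.

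Several genes shared their main peak with a neighbour. The peak also lay at an end of another coding gene in 24 of the 77 (31.2%, interval 21.1 to 42.7), close to the 29.1% of other marked coding genes, in 15 of 46 for the large subunit and 9 of 31 for the small one. In these the mark cannot be given to 1 gene. Rpl7a (with Med22 and Surf1), Rps27 (with Nup210l and Rab13), Rps28 (with Kank3 and Ndufa7) and Rps2 (with Ndufb10 and Rnf151) shared with 2 coding genes each. Among the other 20 were Rpl7 with Rdh10, Rpl4 with Zwilch, Rpl41 with Zc3h10, Rpl9 with Lias, Rpl12 with Lrsam1, Rpl35a with Iqcg, Rpl15 with Nkiras1, Rpl37 with Card6, Rpl24 with Gm6958, Rpl23a with Tlcd1, Rpl19 with Cacnb1, Rpl36 with Micos13, Rpl10 with Dnase1l1, Rplp2 with Pidd1, Rps27a with Clhc1, Rps18 with Vps52, Rps25 with Trappc4, Rps21 with Cables2 and Rpsa with Slc25a38. The 5 with the most tags were Rpl41, Rpl7 and Rpl4, described above, Rps27a, and Rpl9 with 614 tags over 2961 bp at 57.1.

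Some of the partners start head to head with the ribosomal protein gene. Of 28 pairs, 18 had a known start for both genes, and 10 of these were divergent. In 7 the starts lay within 1 kb of each other, at 10 bp for Rps28 and Ndufa7, 66 bp for Rpl9 and Lias, 67 bp for Rps27 and Rab13, 71 bp for Rpl12 and Lrsam1, 135 bp for Rps18 and Vps52, 165 bp for Rpl7a and Med22, and 267 bp for Rpl35a and Iqcg. These 7 peaks held between 473 and 614 tags. Shared peaks were longer and held more tags than unshared ones, with medians of 2776 and 2407 bp and of 490 and 411 tags, but a slightly lower median fold enrichment, 45.2 against 47.6. Other marked genes had medians of 2476 and 2068 bp and of 423 and 307 tags when shared and unshared, and there the shared peaks had the higher median fold enrichment, 42.0 against 37.7.

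Introns of ribosomal protein genes often host small nucleolar RNAs, which guide the modification of ribosomal RNA. The annotation placed 59 such genes inside 30 of the 77, in 20 of 46 for the large and 10 of 31 for the small subunit. Rpl4 held 5 of them, and Rpl13a and Rpl7a held 4 each. Host genes had a median of 452.5 tags over 2510.5 bp and the others 406 tags over 2416 bp, with median fold enrichments of 47.7 and 46.6. The quartiles of tags, 394.5 to 526.5 and 335.5 to 497, overlapped. How many other coding genes hold small nucleolar RNA genes was not counted.

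Ribosomal protein genes have many processed pseudogenes, copies of the spliced mRNA placed elsewhere in the genome. The annotation held 318 of them, of which 4 carried an end peak (1.26%, interval 0.344 to 3.19), against 2.42% of 10291 other pseudogenes. The peaks at Rpl30-ps3 and Rpl35a-ps7 also lay at ends of the coding genes Fnbp4 and Pdia4. Those at Rpl3-ps1 and Rpl38-ps1 held 13 and 23 tags at a fold enrichment of 9.40, below the main peak of every ribosomal protein gene. Fragments that fall in exons can match such copies as well as the gene, and the labels and the header do not say how they were placed, so tag counts over exons are uncertain to that extent.

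Of the genes outside the symbol rule, the paralogs were marked less uniformly, while Fau and Rack1 both had an end peak. Fau, made as a fusion with the small subunit protein Rps30, had 571 tags over 2854 bp at 52.3 at a shared peak. Rack1, a scaffold on the small subunit, had 670 tags over 3348 bp at 52.8. Of 8 paralogs found in the annotation 5 had a peak at an end, Rpl22l1 with 274 tags at 36.9, Rps27l with 284 at 33.3, and, at peaks shared with another coding gene, Rpl36al with 563 at 42.0, Rpl3l with 201 at 32.6 and Rpl7l1 with 416 at 57.9. Rpl10l, Rpl39l and Rps27rt had no called peak over the gene. Rpl10l and Rpl39l are known as testis paralogs of the X-linked Rpl10 and Rpl39, which were both marked here.

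Beside the rest of the translation machinery, the ribosomal protein genes were not alone in being marked. Peaks at an end were found for 76 of 78 mitochondrial ribosomal protein genes (97.4%), 54 of 56 genes of initiation factors (96.4%), 26 of 27 ribosome biogenesis genes (96.3%), 7 of 8 elongation factor genes and 15 of 15 genes of RNA polymerase I and III subunits. Mrpl22, Mrps23 and the nucleolar factor gene Ubtf had a peak only inside the gene, as did Eef1a2, the elongation factor of neurons and muscle, with 60 tags. Eif4a3l1 and Eif4ebp3 had none. The initiation factor list took every symbol of Eif followed by a number, whatever the role of the protein. It therefore also holds Eif5a and Eif6, which are counted again among the elongation factor and ribosome biogenesis genes. Median fold enrichment was 43.1 at mitochondrial ribosomal protein genes (337 tags over 2075.5 bp), 46.0 at initiation factors (447 tags over 2459 bp) and 47.4 at biogenesis genes (463.5 tags over 2679 bp). It was 49.2 at elongation factors (558 tags over 3233 bp) and 41.2 at polymerase subunits (425 tags over 2466 bp). The cytosolic ribosomal protein genes thus lay among these lists and above the mitochondrial ones in all 3 medians.

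**Figure D4:**
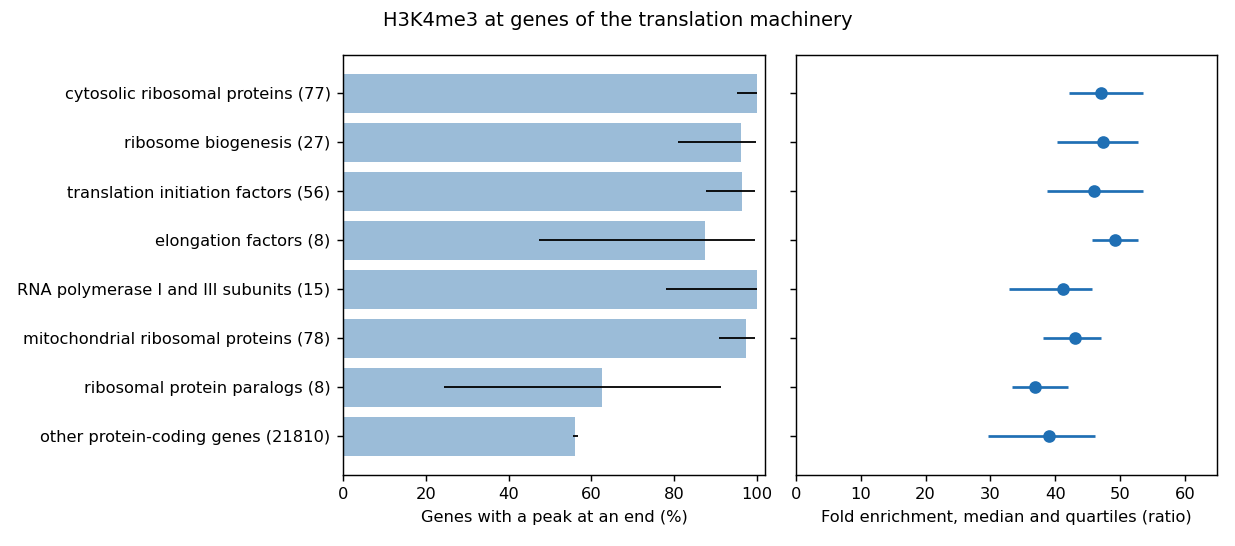
Share of genes with a peak at an end (left, percent, with exact 95% intervals) and fold enrichment of the main peak (right, ratio, median with quartiles) for the cytosolic ribosomal protein genes and other lists, with the number of genes in parentheses. The lists of the translation machinery lie between 87.5% and 100%, the paralogs at 62.5% and other coding genes at 56.2%.

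As a check of the label, an end peak was found at 9 of 10 marker genes of neural stem and progenitor cells, among them Sox2 and Nes, and Pax6 had one inside the gene. None of 4 neuronal, 3 astrocyte and 4 microglial marker genes had a peak at an end, but the neuronal gene Syp had one inside the gene with 64 tags. In the oligodendrocyte and endothelial lists 1 of 3 each did, Mbp with 35 tags and Kdr with 93, both fewer than at any ribosomal protein gene, and the endothelial gene Pecam1 had a peak inside the gene with 24 tags.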

How the data were processed

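The data were 1 H3K4me3 library with 19147183 tags, 18156769 after filtering, and 1 input library with 18441952 and 17831241, per the file header. Per the file header, the authors called peaks with MACS 1.4.2 against the input (p cutoff 1e-05, band width 200 bp, model fold 10 to 30, effective genome size 1.87e+09 bp, tag size 25 bp). Duplicate tags beyond 1 at a position were dropped. MACS2 2.1.0 and the build mm10 are named in the submitters' processing notes; which aligner was run was not given in the sources used here. The deposited values are, per the file header, a raw count of tags per peak, the length and summit in bp, the false discovery rate in percent, the ratio of fold enrichment to the input, and a score (the negative log10 of the p-value, times 10). Score, fold and percent were used as the authors' own values to describe and filter peaks. Dropping duplicates limits counts in the strongest peaks, and the weakest listed peak held 13 tags.

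Peaks were joined to RefSeq genes of GRCm38.p6 (the same assembly as mm10) on the autosomes, X and Y with Python 3.11.15, numpy 2.4.6, pandas 2.3.3, scipy 1.17.1 and matplotlib 3.10.9. Starts and strand came from RefSeq promoter entries, and each gene was given its start nearest to the summit. Neither library has a replicate, so no test was made. Shares carry exact (Clopper-Pearson) and medians order-statistic 95% intervals over genes. These treat the genes as a sample and take in no error between cultures or of the tag counts. Reads amplified by PCR and not marked with molecular identifiers do not each stand for 1 molecule. The genes and lists were chosen with earlier results of these data known. The genes named were the 3 highest and 3 lowest by length, tags, fold enrichment and summit distance, all X-linked genes, all genes with a shared peak, 13 genes of known role and the listed paralogs; others were named after their values were seen. The join was tested on simulated peaks. Alternatives were window size, summit in the window, stricter peaks, joined peaks, other choices of the main peak, the start only, peaks anywhere over the gene, peaks at 1 coding gene, and the addition of genes outside the symbol rule. A few genes are counted in the totals but not reported here by name.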

Additional observations from a re-analysis of the deposited data

How the results depend on the processing

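Each of 12 results was recomputed under up to 12 alternatives, and 139 of 143 alternative values stayed inside the 95% interval of the reported one. The median fold enrichment of the ribosomal protein genes ranged from 46.6 to 47.6, the median length from 2407 to 2489 bp, the median tags from 411 to 454 and the median summit distance from 293 to 320 bp. The share with a peak fell to 94.8% when the summit had to lie in the window, which left out Rpl17, Rpl22, Rpl38 and Rps2, and to 68.8% when peaks shared between coding genes were left out, against 40.8% of other coding genes. The share with a shared peak was 51.9% with windows of 2500 bp (others 35.3%) and 17.5% with the annotated start only (others 18.1%), since these settings change how many gene ends a peak can touch. The false discovery rate limit of 1% removed no peak. The score limit of 100 could remove no main peak of these genes, whose lowest score was 941.48. Taking the main peak by highest fold enrichment or by nearest summit gave the reported value in every result. These unchanged values are included in the 139 and in the counts for the subunits that follow. The order of the subunits was not fixed: the large subunit had the higher median length in 11 of 12 alternatives and the higher tags in 9, and the small subunit the higher fold enrichment in 11. No paired analysis was possible because there was 1 library of each kind. The main peaks of these genes held at least 168 tags each, and the effect of depth was not tested.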
